A study of Mus musculus with 4 samples.

Results

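Neurotrophin and GDNF family receptors were described in GFP+ cells of the E11.5 mouse neural tube that carried either 1 or 2 disrupted copies of Prdm13. The 9 members were the Trk receptor genes Ntrk2 and Ntrk3, the shared neurotrophin receptor gene Ngfr, the GDNF family receptor genes Ret, Gfra1, Gfra2 and Gfra3, and the ligand genes Gdnf and Bdnf. They were taken by gene symbol from a table of 24421 genes, and all 9 had a row. The question was how these receptors and ligands differed between cells that still had 1 working Prdm13 allele and cells that had none.

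PRDM13 is a transcriptional repressor of the dorsal neural tube. In both genotypes GFP had been placed in the first exon of Prdm13 with a stop, so that the GFP allele made GFP in place of PRDM13 and marked the cells that had switched Prdm13 on. Cells were dissociated from E11.5 neural tubes of a mixed ICR and C57Bl/6 background and sorted for GFP. The control cells were Prdm13 GFP/+ (Het, 2 libraries) and the mutant cells were Prdm13 GFP/GFP (Homo, 2 libraries). Every library therefore came from cells with at least 1 GFP allele, and no wild-type cells were included. RNA of several embryos was combined into 1 pool per genotype, and the 2 libraries of a genotype were technical replicates of that pool. Every SD, standard error, interval and p-value below therefore measured at most library preparation and sequencing, and not the spread between embryos.

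Neurotrophins are secreted growth factors that act through the Trk receptor tyrosine kinases and through p75, the product of Ngfr, which binds all of them. Ligands of the GDNF family first bind a membrane-anchored GFRα co-receptor, and the complex then activates the receptor tyrosine kinase RET. These pathways are best known for the survival and target innervation of sensory, autonomic and motor neurons, and several of the receptors are also made by interneurons of the dorsal spinal cord.

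Levels are given as RPKM, read counts scaled to exon length and library size, as the authors computed them. The 4 libraries had effective sizes of 11572778 to 18323396 reads, and between 11774 and 11831 genes stood at 1 RPKM or more in each. Prdm13 itself was listed at 114 and 127 RPKM in the Het libraries and at 310 and 324 RPKM in the Homo libraries. The count takes in exons that the GFP allele still holds, so this level did not check the genotype labels. Markers of the dorsal lineages are given beside it. The study itself reported most of them as changed in these same data, so they are not an independent check of the labels. All 8 markers of dorsal inhibitory neurons fell in Homo cells, from a summed 523 to 561 RPKM to 99.5 to 106 RPKM, and all 7 markers of dorsal excitatory neurons rose, from 30.4 to 33.3 RPKM to 195 to 201 RPKM. Markers of both lineages thus moved with the genotype, and in these bulk libraries a change in the number of cells that express a gene and a change in RNA per cell cannot be told apart.

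Of the 9 members, 5 had a mean of at least 1 RPKM in either genotype and were tested, and 4 (Gfra2, Gfra3, Gdnf and Bdnf) were below that filter. In Het cells the order of levels per length was Ngfr, Gfra1, Ntrk2, Ntrk3, Ret and Bdnf, followed by Gfra2 and Gfra3, whose libraries overlapped, and Gdnf. In Homo cells the first 5 kept that order, followed by Gfra3, then Bdnf and Gfra2, whose libraries overlapped, and Gdnf. All other neighbours in both orders were separated in every library.

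**Figure D1:**
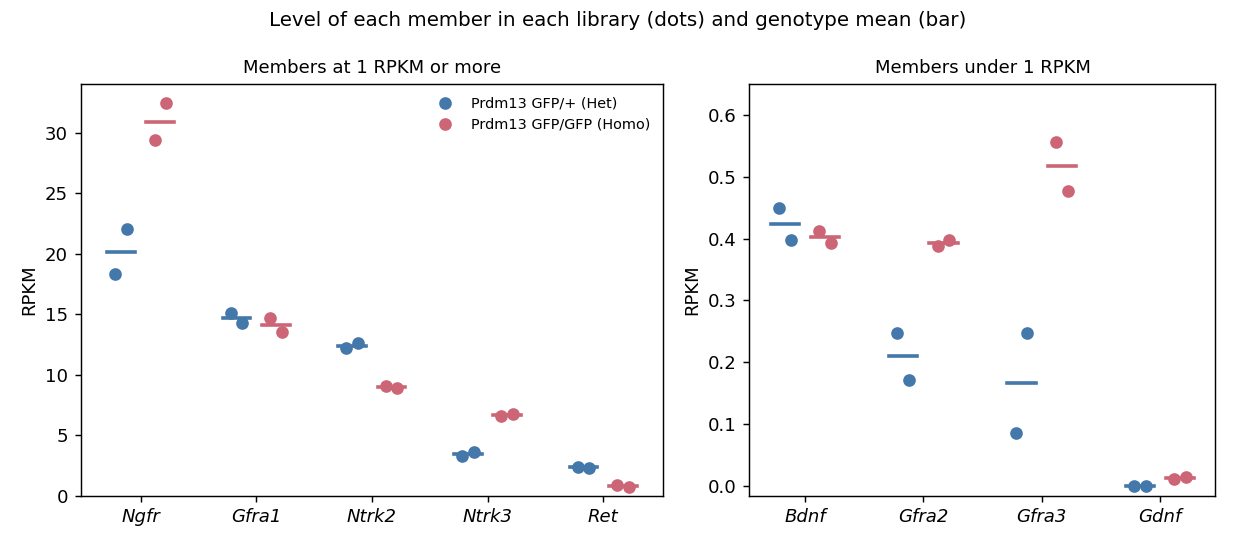
RPKM (vertical axis, linear) of each of the 9 members in each library, with Het libraries in blue, Homo libraries in red and a bar at the mean of the 2 libraries. Ngfr, Ntrk3, Gfra2 and Gfra3 were higher in both Homo libraries, Ntrk2 and Ret were lower in both, Gfra1 and Bdnf overlapped, and Gdnf lay at 0 to 0.015 RPKM.

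A gene was called where limma gave a Benjamini-Hochberg adjusted p under 0.05 and the difference reached 1.5-fold, which is 0.58 on the log2 scale of RPKM + 0.1. By that rule 3 of the 5 tested members were called, Ntrk3 and Ngfr higher and Ret lower in Homo cells, where 6.33% of all 12046 tested genes were called. At any fold, 4 of the 5 had an adjusted p under 0.05, 2 higher and 2 lower, against 19.7% of all tested genes, 9.76% higher and 9.95% lower. The libraries of the 2 genotypes did not overlap for the same 4 members, against 62.1% of all tested genes, 31.7% with Homo above and 30.3% with Homo below. Ret passed the filter through the Het libraries alone, so these counts describe the members and are not offered as evidence about the group. The median log2 fold change of the 5 tested members was -0.06, and that of all tested genes was 0.0104. With 2 libraries per genotype, the smallest two-sided p that exact permutation allows is 0.333, so the single-gene statements rest on the fit across all genes.

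**Figure D2:**
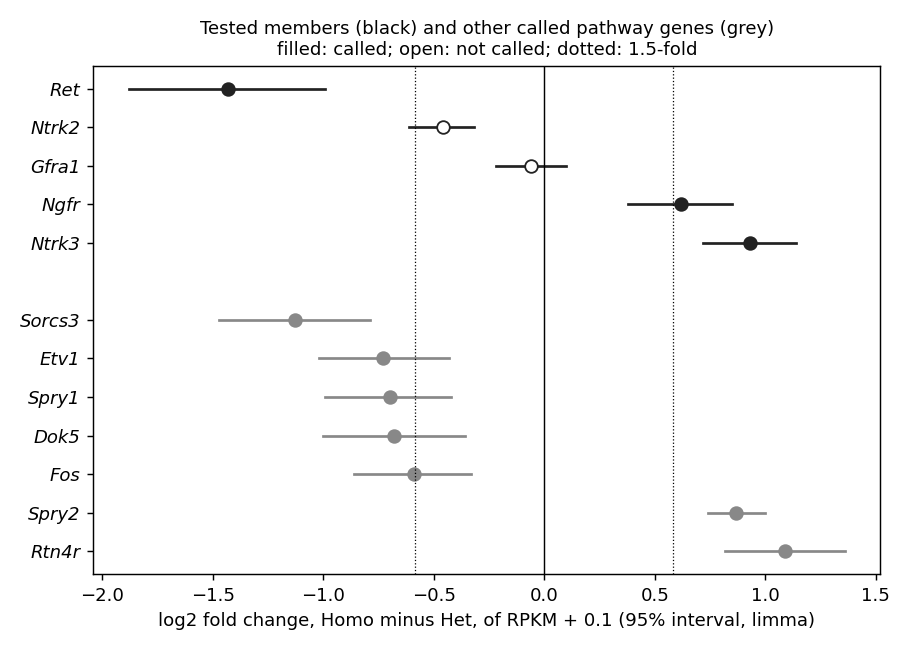
Log2 fold change (horizontal axis, Homo minus Het, of RPKM + 0.1) with its 95% interval from limma for the 5 tested members in black and for the 7 other called genes of the pathway lists in grey. Filled points were called, open points were not, and the dotted lines mark 1.5-fold. The interval of Ret, from -1.88 to -0.99, and that of Ntrk3, from 0.72 to 1.14, lay wholly past 1.5-fold, and the interval of Ngfr, from 0.38 to 0.85, crossed it.

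To show the DNA just before the start of a called receptor gene, the 250 bases upstream of the RefSeq start are given for Ngfr. Capitals mark E-boxes (CANNTG, searched on both strands, which read alike), the class of site bound by the bHLH factors with which PRDM13 is known to act. The study found most of its PRDM13 bound sites far from gene starts. Binding of PRDM13 or a bHLH factor in this window was not examined here. The sequence is from RefSeq on GRCm38.p6 and is printed 5' to 3' on the strand of the gene. GENCODE places the start of the same gene slightly further upstream, inside this window.
Ngfr, chr11:95587699-95587948, minus strand: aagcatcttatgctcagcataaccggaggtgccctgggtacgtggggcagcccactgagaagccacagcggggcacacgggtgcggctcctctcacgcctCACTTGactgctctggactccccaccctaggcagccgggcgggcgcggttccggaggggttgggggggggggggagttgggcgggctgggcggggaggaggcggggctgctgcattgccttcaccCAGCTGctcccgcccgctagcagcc
The window held 2 E-boxes, CACTTG with its first base at -150 from the RefSeq start and CAGCTG at -25. At least 1 E-box was found in 66.2% of 32851 promoter windows of the same length and at least 2 in 31.8%, and CAGCTG was found in 13% of them. GC content was 70.4%, against a median of 52.4% over all windows. No sequence is shown for the other members.

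The 2 Trk receptor genes among the members differed in opposite directions. Ntrk3 (gene ID 18213, chromosome 7, 78179986 to 78581034 on mm10) encodes TrkC, the receptor of the Ntf3 product. It was at 3.29 and 3.65 RPKM in the Het libraries, from 197 and 346 reads, and at 6.6 and 6.77 RPKM in the Homo libraries, from 555 and 479 reads. Both Homo libraries lay well above both Het libraries, and the libraries of each genotype were close together. The mean rose 1.93-fold, from 3.47 ± 0.254 to 6.69 ± 0.121 RPKM (SD, n = 2 libraries each), a log2 fold change of 0.93 with a standard error of 0.088 (limma, Benjamini-Hochberg adjusted p = 0.00108). With any 1 library left out, the log2 fold change stayed between 0.86 and 1.0 and Ntrk3 was still called.

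Ntrk2 (gene ID 18212, chromosome 13, 58806472 to 59133970) encodes TrkB, the receptor of BDNF. It was at 12.2 and 12.6 RPKM in the Het libraries, from 1986 and 3239 reads, and at 9.1 and 8.87 RPKM in the Homo libraries, from 2076 and 1703 reads. The genotypes did not overlap, and the Homo libraries were the lower ones. The mean was 12.4 ± 0.26 RPKM in Het and 8.98 ± 0.16 RPKM in Homo cells (SD, n = 2 each), which is 1.38-fold lower. The log2 fold change was -0.46 with a standard error of 0.06 and a 95% interval of -0.61 to -0.32 (limma, adjusted p = 0.00382), so Ntrk2 passed the p threshold and missed the fold. With no filter on low values its adjusted p was 0.0619. The RPKM of Ntrk2 was spread over 14037 bases of exon, a length that joins all isoforms, and a short or truncated isoform could not be told from the full-length receptor. The RPKM of Ntrk3 was likewise 1 value for the whole gene, over 5170 bases of exon. It too could not tell isoforms apart, so the higher level is not shown to be that of the full-length receptor.

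The ratio of Ntrk2 to Ntrk3 RPKM differed between the genotypes. It was 3.71 and 3.45 in the Het libraries and 1.38 and 1.31 in the Homo libraries. Ntrk2 stood above Ntrk3 in all 4 libraries, by a smaller margin in Homo cells. The ratio compares levels per length, it depends on the exon lengths used for each gene, and no test was made on it.

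**Figure D3:**
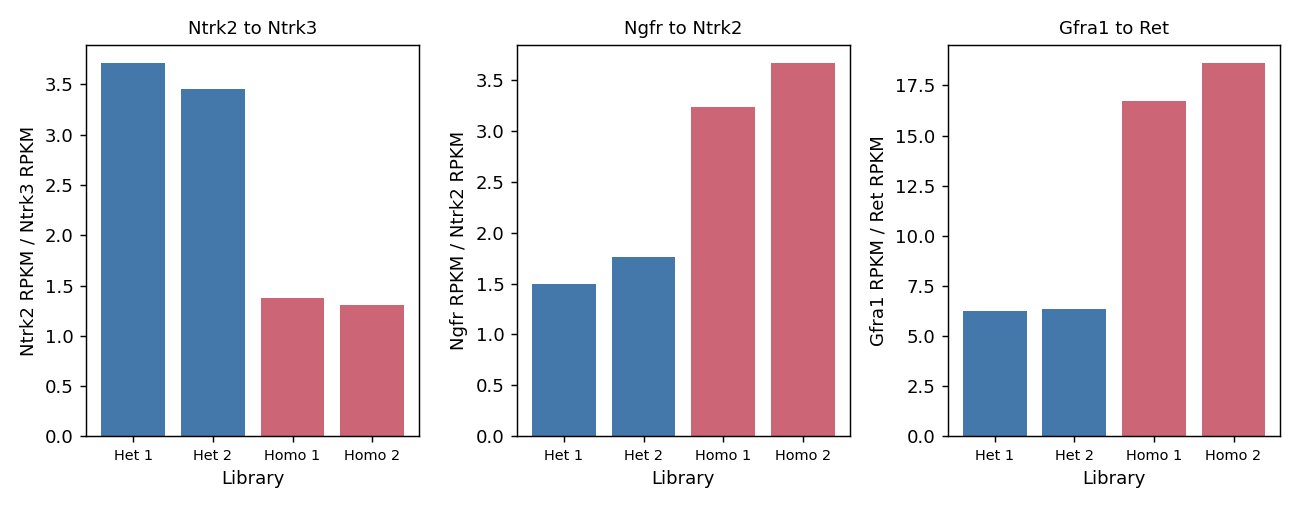
The ratio of Ntrk2 to Ntrk3 RPKM (left), of Ngfr to Ntrk2 RPKM (middle) and of Gfra1 to Ret RPKM (right) in each library, with Het in blue and Homo in red. The Ntrk2 to Ntrk3 ratio was 3.45 to 3.71 in Het and 1.31 to 1.38 in Homo libraries, the Ngfr to Ntrk2 ratio was 1.5 to 1.76 and 3.23 to 3.66, and the Gfra1 to Ret ratio was 6.27 to 6.34 and 16.7 to 18.6.

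Ngfr (gene ID 18053, chromosome 11, 95568818 to 95587698) encodes p75, which binds all neurotrophins and also forms receptor complexes with the Trk proteins, sortilin and the Nogo receptor. It had the highest level of the 9 members in every library. It was at 18.3 and 22.1 RPKM in the Het libraries, from 721 and 1380 reads, and at 29.4 and 32.5 RPKM in the Homo libraries, from 1627 and 1514 reads. The Homo libraries were both above the Het libraries, while the Het libraries also stood apart from each other. The mean rose 1.53-fold, from 20.2 ± 2.7 to 30.9 ± 2.2 RPKM (SD, n = 2 each), a log2 fold change of 0.62 with a standard error of 0.0983 (limma, adjusted p = 0.00788). This was close to the 1.5-fold threshold. Without Het library 1 the log2 fold change was 0.48 (adjusted p = 0.0309), and without Homo library 2 it was 0.54 (adjusted p = 0.0632), so that either library decided the call. The ratio of Ngfr to Ntrk2 RPKM was 1.5 and 1.76 in Het and 3.23 and 3.66 in Homo libraries.

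Ret (gene ID 19713, chromosome 6, 118151748 to 118197744) encodes the signalling receptor of the GDNF family. It was at 2.4 and 2.26 RPKM in the Het libraries, from 204 and 304 reads, and at 0.88 and 0.727 RPKM in the Homo libraries, from 105 and 73 reads. Both Homo libraries were below 1 RPKM and far below both Het libraries. The mean fell 2.9-fold, from 2.33 ± 0.0999 to 0.803 ± 0.108 RPKM (SD, n = 2 each), with a log2 fold change of -1.43 and a standard error of 0.186 (limma, adjusted p = 0.00381). It was the largest difference among the 5 tested members. With any 1 library left out it lay between -1.55 and -1.31 and Ret was still called. A limma voom fit of the recovered reads, which needs no pseudocount on RPKM, gave -1.52.

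Gfra1 (gene ID 14585, chromosome 19, 58235581 to 58455946) encodes the co-receptor preferred by GDNF. It was at 15.1 and 14.3 RPKM in the Het libraries, from 828 and 1247 reads, and at 14.7 and 13.5 RPKM in the Homo libraries, from 1133 and 877 reads. The genotypes overlapped. The means were 14.7 ± 0.52 and 14.1 ± 0.829 RPKM (SD, n = 2 each), and the log2 fold change of -0.06 had a standard error of 0.0663 (limma, adjusted p = 0.557). The 95% interval ran from 0.858-fold to 1.07-fold, so that a 1.5-fold difference in either direction between these pools lay outside it. The interval does not cover the spread between embryos. The ratio of Gfra1 to Ret RPKM was 6.27 and 6.34 in the Het libraries and 16.7 and 18.6 in the Homo libraries. The RNA level per length of Gfra1 was thus above that of Ret in every library, by more in Homo cells. The ratio does not give protein amounts or show that the same cells made both. An antisense gene, Gm16277, shares exon sequence with Gfra1, and the sources used here do not state whether reads were counted by strand, so reads of the 2 genes could not be told apart.

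The other co-receptor genes were low. Gfra2 (gene ID 14586) encodes the co-receptor preferred by neurturin and was at 0.248 and 0.172 RPKM in the Het libraries and at 0.388 and 0.398 RPKM in the Homo libraries. Both Homo libraries were above both Het libraries, on 21 reads in all in Het and 41 in Homo cells. The ratio of Homo to Het was 1.95, with an exact 95% interval of 1.13 to 3.47 that covered counting error only. In a limma voom fit of the 15231 genes with at least 10 recovered reads in all, Gfra2 had a log2 fold change of 0.95 and was not called (Benjamini-Hochberg adjusted p = 0.0883).

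Gfra3 (gene ID 14587) encodes the co-receptor preferred by artemin. It was at 0.0868 and 0.247 RPKM in the Het libraries, from 2 and 9 reads, and at 0.556 and 0.477 RPKM in the Homo libraries, from 18 and 13 reads. The Homo libraries were again both the higher ones, and the first Het library was below 3 reads, the limit taken for detection. The ratio of Homo to Het was 2.81, with an exact 95% counting interval of 1.38 to 6.21. In the same voom fit, which was added after the data had been seen, its log2 fold change was 1.57 with a standard error of 0.518 (adjusted p = 0.0348), and it was called, as were 6.72% of the genes in that fit and 3.67% in the higher direction. In the planned limma fit with no filter on low values, Gfra3 was not called (log2 fold change 1.27, adjusted p = 0.323).

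The ligand members gave no difference that could be shown at this depth. Bdnf (gene ID 12064, chromosome 2, 109674700 to 109727043), which encodes the TrkB ligand, was at 0.45 and 0.398 RPKM in the Het libraries and at 0.412 and 0.392 RPKM in the Homo libraries. The genotypes overlapped, on 84 reads in Het and 81 in Homo cells. The ratio of Homo to Het was 0.963 with an exact 95% counting interval of 0.701 to 1.32, and the voom fit gave a log2 fold change of -0.05 (adjusted p = 0.909). Bdnf also has an antisense partner with shared exon sequence, Gm45346. Gdnf (gene ID 14573) had no read in either Het library and 1 read in each Homo library. All 4 values were under 3 reads, which corresponded to 0.0337 to 0.0534 RPKM, so Gdnf was not detectable at this depth in either genotype and no fold is given.

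Further ligands of both families were also scarce. Ntf3 was at 0.223 and 0.212 RPKM in Het and at 0.397 and 0.283 RPKM in Homo libraries, on 10 and 16 reads in all, and Ntf5 was at or below 0.094 RPKM throughout. Nrtn, which encodes neurturin, was at 0.507 and 0.48 RPKM in Het and at 0.18 and 0.929 RPKM in Homo libraries, and the Homo values lay on both sides of the Het values. Artn, which encodes artemin, was at 0.0303 to 0.255 RPKM. Pspn, which encodes persephin, passed the filter through its Het libraries at 2.37 and 0.806 RPKM, against 1.04 and 0.463 RPKM in Homo libraries, and was not called (log2 fold change -0.90, limma adjusted p = 0.288). Among the further receptors, Gfra4 was at 0.519 and 0.692 RPKM in Het and at 0.492 and 0.488 RPKM in Homo libraries. Both Homo libraries were below both Het libraries, on 28 reads in Het and 22 in Homo cells. The voom fit did not call it (adjusted p = 0.643). Gfral was at or below 0.0415 RPKM. Ncam1, an adhesion molecule that also serves as a GDNF receptor, was at 30 to 30.5 RPKM in all 4 libraries (log2 fold change 0.01, limma adjusted p = 0.889). Ngfr, Gfra1, Ntrk2 and Ntrk3 each stood above every ligand gene given here in all 4 libraries.

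The other genes of these pathways were counted in 5 lists of 66 genes, of which 51 were tested. Of these, 2 were called higher and 5 lower, against 3.65% and 2.67% of all tested genes, and 44 were not called. The median log2 fold change of the 51 genes was -0.02. The neurotrophin list held 1 called gene, Sorcs3, a sortilin-related receptor. Sorcs3 was at 2.87 and 2.75 RPKM in Het and at 1.18 and 1.28 RPKM in Homo libraries, which did not overlap, and it fell by 1.13 on the log2 scale (limma, adjusted p = 0.00346). Sort1, which encodes sortilin, a partner of p75 for uncleaved neurotrophins, was at 43.8 to 44.8 RPKM in Het and 38.8 to 39.2 RPKM in Homo libraries, a log2 fold change of -0.18 (adjusted p = 0.0383) far short of 1.5-fold. Sorcs1 and Sorcs2 were not called.

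Among 11 tested partners and effectors of p75, 1 was called. Rtn4r encodes the Nogo receptor, which uses p75 as a co-receptor in some neurons. It was at 3.18 and 3.96 RPKM in Het and at 7.75 and 7.61 RPKM in Homo libraries and rose by 1.09 on the log2 scale (limma, adjusted p = 0.00156). Lingo1, the third component of that complex, was at 5.85 and 7.59 RPKM in Het and at 9.0 and 9.27 RPKM in Homo libraries, a log2 fold change of 0.45 that missed the fold (adjusted p = 0.0451). For 8 of the 11 partners, among them the adaptor genes Maged1 and Traf6, the log2 fold change was under 0.2 in size. The share of all tested genes under that size was not counted, so the count only describes this list.

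Of 23 tested adaptors and effectors of the receptor kinases, 15 had a log2 fold change under 0.2 in size, including Frs2, Grb2, Gab1, Plcg1 and Pik3r1. This count, too, has no share of all tested genes beside it and only describes the list. Dok5, an adaptor that binds RET, was the 1 gene of the 23 that was called. It was at 5.16 and 5.48 RPKM in Het and at 3.74 and 2.88 RPKM in Homo libraries and fell by 0.68 on the log2 scale (limma, adjusted p = 0.0166). Grb10, an adaptor that also binds RET, was at 131 to 132 RPKM in Het and at 195 RPKM in both Homo libraries, a log2 fold change of 0.57 (adjusted p = 0.000322) just short of the fold. Dok6, a relative of Dok5 below the filter, was at 0.347 and 0.986 RPKM in Het and at 0.309 and 0.147 RPKM in Homo libraries, from 220 and 70 reads in all. Its Het libraries stood far apart, both were above the Homo libraries, and it was called lower in the voom fit of genes with at least 10 reads (log2 fold change -1.57, adjusted p = 0.00775).

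Of 11 tested genes that respond to receptor kinase signalling, 1 was called higher and 3 lower, against 3.65% and 2.67% of all tested genes. A negative log2 fold change was found for 10 of the 11, and the share of negative values over all tested genes was not counted. The median of the 11 was -0.31, and that of all tested genes was 0.0104. The list was chosen with earlier results known, so these counts only describe its genes. Spry2, a feedback inhibitor of receptor kinases, was at 14.7 and 14.3 RPKM in Het and at 26.2 and 27.0 RPKM in Homo libraries and rose by 0.87 on the log2 scale (limma, adjusted p = 0.000175). Its relative Spry1 went the other way, from 3.08 and 3.09 RPKM in Het to 1.92 and 1.79 RPKM in Homo libraries, and fell by 0.70 (adjusted p = 0.00991). Etv1, an ETS transcription factor, was at 4.81 and 4.19 RPKM in Het and at 2.88 and 2.48 RPKM in Homo libraries and fell by 0.73 (adjusted p = 0.00952). Dusp6, a phosphatase that restrains ERK, had a log2 fold change of -0.45 (adjusted p = 0.00382), and the early response gene Ier2 one of -0.31 (adjusted p = 0.00685), both lower and short of the fold. The immediate early gene Fos was at 6.89 and 7.09 RPKM in Het and at 4.14 and 5.1 RPKM in Homo libraries and fell by 0.59 (adjusted p = 0.0129), while Egr1, of the same kind, had a log2 fold change of -0.11 (adjusted p = 0.315). The calls of Dok5, Spry1, Etv1 and Fos were each lost with a pseudocount of 1 and with certain single libraries left out, including Het library 1 for all 4, and without that library 3 pathway genes were called in place of 7. These genes respond to many other receptors as well.

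**Figure D4:**
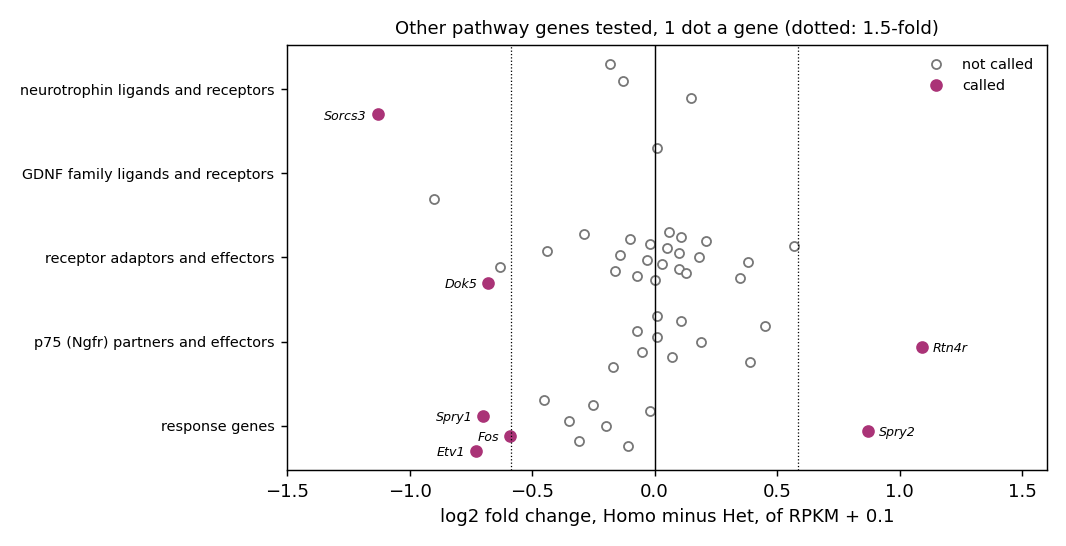
Log2 fold change (horizontal axis, Homo minus Het, of RPKM + 0.1) of the 51 tested genes of the 5 pathway lists, 1 dot a gene, with called genes filled and named and dotted lines at 1.5-fold. The vertical place within a list carries no value. Most genes lie within 1.5-fold, and the 7 called genes run from -1.13 for Sorcs3 to 1.09 for Rtn4r.

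Several of these receptors are also made by cells that could enter a sort of neural tube cells, and the markers of those cells are given beside the results. Sensory neurons of the dorsal root ganglion make Ntrk3 and Ret. The 8 markers of these cells given here were all below the filter, and summed to 2.91 to 3.33 RPKM in Het and 3.2 to 3.77 RPKM in Homo libraries, which overlapped. In the voom fit of genes with at least 10 reads, 1 of them was called, Scn9a, a sodium channel gene, which was at 0.304 and 0.214 RPKM in Het and at 0.47 and 0.493 RPKM in Homo libraries (log2 fold change 0.96, adjusted p = 0.00288). Avil was also higher in both Homo libraries, at 0.0855 and 0.09 RPKM in Het and 0.223 and 0.217 RPKM in Homo libraries, and was not called there (adjusted p = 0.113), while P2rx3 was lower in both and not called. The part of these cells in the higher Ntrk3 level was not tested. Their defining genes Runx1 and Runx3 were at or below 0.0752 RPKM in all libraries. Neural crest and Schwann cell precursors make Ngfr. Of 7 markers, 1 was called, Foxd3, which fell and which some spinal interneurons also make, and the sum was 705 to 781 RPKM in Het and 696 to 700 RPKM in Homo libraries, most of it Fabp7, which neural progenitors also make. Among the more restricted of these markers, Erbb3 was at or below 0.109 RPKM, while Sox10 was at 0.255 and 0.603 RPKM in Het and at 0.68 and 0.781 RPKM in Homo libraries. The part of these cells in the higher Ngfr level was not tested.

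Motor neurons make Ret. Their 6 markers were each below the filter, at most 0.565 RPKM, and summed to 1.62 to 1.75 RPKM in Het and 1.06 to 1.16 RPKM in Homo libraries. That sum was lower in Homo cells in the same direction as Ret, and its part in the Ret difference was not tested. Of 5 sympathoadrenal markers, which summed to 4.8 RPKM in each Het library and 7.7 to 8.46 RPKM in Homo libraries, Th was called higher and made up most of the sum, and Hand2 was at 0 in 3 libraries. The enteric markers Hand2 and Ednrb summed to 63 to 64.6 RPKM in Het and 56.9 to 60 RPKM in Homo libraries, nearly all of it Ednrb, which was not called. Endothelial markers summed to 2.1 to 2.9 RPKM in Het and 2.7 to 3.15 RPKM in Homo libraries, erythroid markers to 30.8 to 31.4 RPKM and 33.1 to 34.5 RPKM with Hba-a1 and Hba-a2 at 0, and mesenchymal markers to 5.85 to 6.54 RPKM and 6.42 to 6.44 RPKM, with Pdgfrb called higher. Of the other mesenchymal markers, Pdgfra was at 0.834 and 0.656 RPKM in Het and at 0.42 and 0.38 RPKM in Homo libraries and was called lower in the voom fit (log2 fold change -0.83, adjusted p = 0.00693), and Col1a2 and Col3a1 were lower in both Homo libraries and not called. Dcn was higher in both Homo libraries and not called, at 0.249 and 0.21 RPKM in Het and 0.413 and 0.596 RPKM in Homo libraries. The genotypes overlapped for Col1a1 and Twist1. Of 7 markers of neural progenitors 1 was called, lower, and of 9 markers of neurons in general 3 were called higher and 1 lower. The part of the inhibitory and excitatory neurons in the receptor differences was not tested.

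For each called member, the 3 tested genes with the most similar pattern were found by the distance between their log2 values over the 4 libraries, each centred on its own mean. Nearest to Ntrk3 were Arl4d at a distance of 0.0348, Gdpd5 at 0.0595 and Veph1 at 0.0702. Nearest to Ngfr were Crip2 at 0.0315, Slc45a3 at 0.032 and Irx3, a homeodomain factor of the neural tube, at 0.035. Nearest to Ret were Hs3st5 at 0.0645, Kcnmb2, a potassium channel subunit, at 0.0957 and Rnf207 at 0.11. These distances rest on 4 libraries and describe a similar fold and a similar split of the libraries within each genotype.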

How the data were processed

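GFP+ cells of Prdm13 GFP/+ and Prdm13 GFP/GFP neural tubes were profiled by RNA-seq of polyadenylated RNA. Per the study's methods and the labels, the authors mapped reads with TopHat2 (2.1.0) to mm10 with RefSeq genes, counted them with featureCounts, normalized them by TMM in edgeR (3.6.8) and deposited RPKM values for 24421 genes in 4 libraries.

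RPKM values were compared on log2(RPKM + 0.1) with limma (3.58.1, lmFit and eBayes with a trend, two-sided) over 12046 genes with a mean of at least 1 RPKM in either genotype, with Benjamini-Hochberg adjustment over all of them. Whole reads were recovered from the steps of the RPKM values for 19198 of the 19200 genes above 0 (99.99%), and were tested with limma voom. The tolerance was set at 0.002 reads and widened with the count. The exon length solved in that step lay within 5% of the annotated length for 70.6% of genes that had one. The voom fit of genes with at least 10 reads, which called 1023 genes, was added after the data were seen. The limma fit on log2(RPKM + 0.1) was also run on simulated data, with 11987 genes tested and 200 of them changed. It called 187 of the changed genes and 24 of the unchanged ones. Read recovery, run on simulated data as well, was exact for 5662 of 5796 genes. The voom fit was not tested in this way. Exact 95% intervals and the 3-read floor cover counting error only.

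The named genes were the 9 members, Prdm13, the called genes of the pathway lists with the uncalled ligands and co-receptors, the 3 genes nearest to each called member and markers of other cells. A few uncalled pathway genes and markers outside that rule were named after their values were seen. The members and lists were chosen with earlier results of these data known. Libraries of a genotype differed by more than counting noise, with a chi-square per gene of 2.26 in Het and 2.19 in Homo. Promoter sequences were matched to RefSeq by symbol for 5 of the 9 members, and 1 is shown. Some genes of the pathway and marker lists are not reported here and were left out of their counts and sums after the values had been seen.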

Additional observations from a re-analysis of the deposited data

How the results depend on the processing

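Of 14 alternatives, Ntrk3 and Ret were called in 13 and Ngfr in 11, while Ntrk2 and Gfra1 were called in none. With no filter on low values, 30 genes were called higher and 14 lower, with 0 members and 0 pathway genes, and adjusted p-values from limma rose to 0.0665 for Ntrk3 (log2 fold change 0.93), 0.208 for Ngfr (0.62), 0.0931 for Ret (-1.43) and 0.0619 for Ntrk2 (-0.46). That fit added the 4 members below the filter and other genes near 0 to those tested. A pseudocount of 1 left 3 of 7 pathway genes called. With 1 library left out in turn, 285 to 490 genes were called higher and 240 to 298 lower, with 2 to 3 members and 3 to 6 pathway genes, and the lowest count of higher genes came without Homo library 2. Log2 fold changes then ran from 0.48 to 0.75 for Ngfr, 0.86 to 1.0 for Ntrk3, -1.55 to -1.31 for Ret and -0.48 to -0.44 for Ntrk2. Where an arm was left with 1 library, that library was assumed to vary like the others.

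The libraries of a genotype carry numbers, but same-numbered libraries did not deviate together (correlation 0.0475 over 12046 genes). With the replicate block, 459 genes were called higher and 342 lower, and 3 members. Depth limits the 4 members below the filter most: Gdnf could not be detected and Gfra3 rested on 11 and 31 reads.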
